A study of Mus musculus with 18 samples.

Results

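The genes described here are 8 regulators and products of bone and cartilage formation. They are the transcription factors Sp7, Runx1, Runx2, Sox5 and Sox6, the phosphatase Alpl, and the matrix proteins Mgp and Chad. All 8 were chosen by name, with earlier results of these data known. Of the 8, 7 have a row among the 14391 genes of the deposited expression table. Chad has no row and is not analysed here. RNA was sequenced from cultured mouse tendon cells in 18 libraries that make up 6 groups of 3.

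The cells were wild type and came from adult or neonatal tendon, which had been digested with collagenase, and 1 culture held the cells of 4 adult or 3 neonatal tendons. All groups shared the same history: the cells were passaged, frozen, thawed and cultured for 3 days before treatment. Adult cells and neonatal cells each then received complete medium mixed either with T cell media alone (the media groups), with the supernatant of stimulated adult T cells, or with the supernatant of stimulated neonatal T cells. The comparisons therefore ask how supernatant of stimulated T cells of either age moved these genes in tendon cells of either age. No group received supernatant of unstimulated T cells, so secreted products cannot be told apart from other changes of the medium. The labels do not state how long the treatment lasted, which mouse strain was used, or whether the 3 libraries of a group were separate animals or separate wells, so the p-values measure only the spread between these libraries, which may be technical. Cultures of this kind are mixed and expanded, and in bulk RNA fewer cells of a type and less RNA per cell cannot be told apart.

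Runx2 and Sp7 (also called osterix) act in sequence to commit mesenchymal cells to the osteoblast lineage, and Runx1 is the relative of Runx2 best known from blood formation that is also active in skeletal progenitors. Sox5 and Sox6 are closely related proteins that work with Sox9 on cartilage matrix genes. Alpl, tissue-nonspecific alkaline phosphatase, removes pyrophosphate and so permits mineral to form, whereas Mgp, matrix Gla protein, is a vitamin K-dependent inhibitor of mineralization in arteries and cartilage.

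Runx1 and Runx2 moved in opposite directions in adult cells, and the starts of their transcripts share a near-identical stretch, which is why these sequences are shown. Among 12 RefSeq promoter windows of 5 measured members (Alpl, Runx1, Runx2, Sox5 and Sox6; build GRCm38.p6, 250 bases before to 50 after a start site), 4 hold the Runx-type motif TGTGGT or its reverse complement ACCACA on either strand: 1 of Runx1, 1 of Runx2 and 2 of Sox6. Of all 32851 windows of that length, 16.8% hold it. The 3 stretches below are read 5′ to 3′ on the strand of the gene, and capitals mark the motif. The first lies at chr16:92826025-92826054 on the minus strand, bases 21 to 50 downstream of a Runx1 start site. The second (chr17:44814690-44814719, minus strand) covers bases -92 to -63 of Runx2, and the third (chr17:44814583-44814612, minus strand) bases 16 to 45 downstream of the same start.
Runx1 downstream: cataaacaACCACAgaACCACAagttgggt
Runx2 upstream: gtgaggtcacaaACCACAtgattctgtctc
Runx2 downstream: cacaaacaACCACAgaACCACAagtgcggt
Both downstream stretches carry 2 copies of the motif at the same spacing, and they are identical at 27 of 30 bases. A match is a description of the letters, not evidence of binding. The Sox-type motif AACAAT (10.7% of all windows, both strands) was found in 1 window of Sox6, and TTCNNNGAA, the STAT-type motif (8.3% of all windows), in 2 windows of Sox6. No match of either overlapped the stretches shown.

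The estimated depth lay between 12.7 and 17.7 M reads, so that 3 reads are worth 0.169 to 0.237 CPM (reads of a gene per M reads of its library). Tendon genes, including the collagen genes Col1a1 and Col1a2 and the tendon factor Scx, were measured at 10 of 11 and summed to 29330 to 33030 CPM in neonatal cells in media and 29770 to 31310 CPM in adult ones. They were lower with adult supernatant, at 16450 to 17540 CPM in neonatal and 14260 to 15860 CPM in adult cells, and 23120 to 25810 and 21740 to 28330 CPM with neonatal supernatant. A few libraries stood apart. Type I interferon genes summed to 222 CPM in the second adult-cell media library, beside 70.5 and 54.9 CPM in the other 2. They summed to 306 CPM in the first neonatal-cell media library, beside 26.2 and 20.1 CPM. In adult cells with neonatal supernatant the same genes ranged from 69.5 to 411 CPM, with a median of 235 CPM. IL-17 target genes summed to 421 CPM in library 3 of neonatal cells with neonatal supernatant, against 1204 and 1425 CPM in the other two. Library 3 of neonatal cells in media was the highest of its group for Sp7, Runx1, Runx2, Alpl and Sox6. Left out together, the pair of interferon-high media libraries changed 2 of the members' calls, which are named below. Leaving out library 3 of neonatal cells in media changed none of the calls against media or between ages in media.

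Supernatant moved the members in a mixed pattern, with the mineralization inhibitor Mgp down, the phosphatase Alpl and the factor Runx1 up, and the osteoblast factors Runx2 and Sp7 level or down. Each group was compared with limma across all 14391 genes, and calls were made where the adjusted p (Benjamini-Hochberg) was under 0.05. With adult supernatant, 4 of the 7 measured members were called in adult cells (1 higher, 3 lower) where 52.0% of all genes were, and 5 of 7 in neonatal cells (3 higher, 2 lower) where 47.8% of all genes were. With neonatal supernatant, 5 of 7 were called in adult cells (2 higher, 3 lower) against 27.3% of all genes, and 3 of 7 in neonatal cells (2 higher, 1 lower) against 18.3%. The count of 5 in adult cells with neonatal supernatant was 2 to 4 when any 1 of its 6 libraries was left out. With adult supernatant in adult cells, 4 of 7 is near the background share. The members were chosen with earlier results of these data known, so these counts cannot show that the set responds more than other genes. The median log2 fold change of the members was 0.06, -0.58, -0.42 and -0.09 for adult cells with adult and with neonatal supernatant and neonatal cells with adult and with neonatal supernatant, beside 0.03, 0.03, 0.07 and 0.04 over all genes. The responses of one cell age share their media libraries, so their values are set side by side and not counted as independent.

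**Figure D1:**
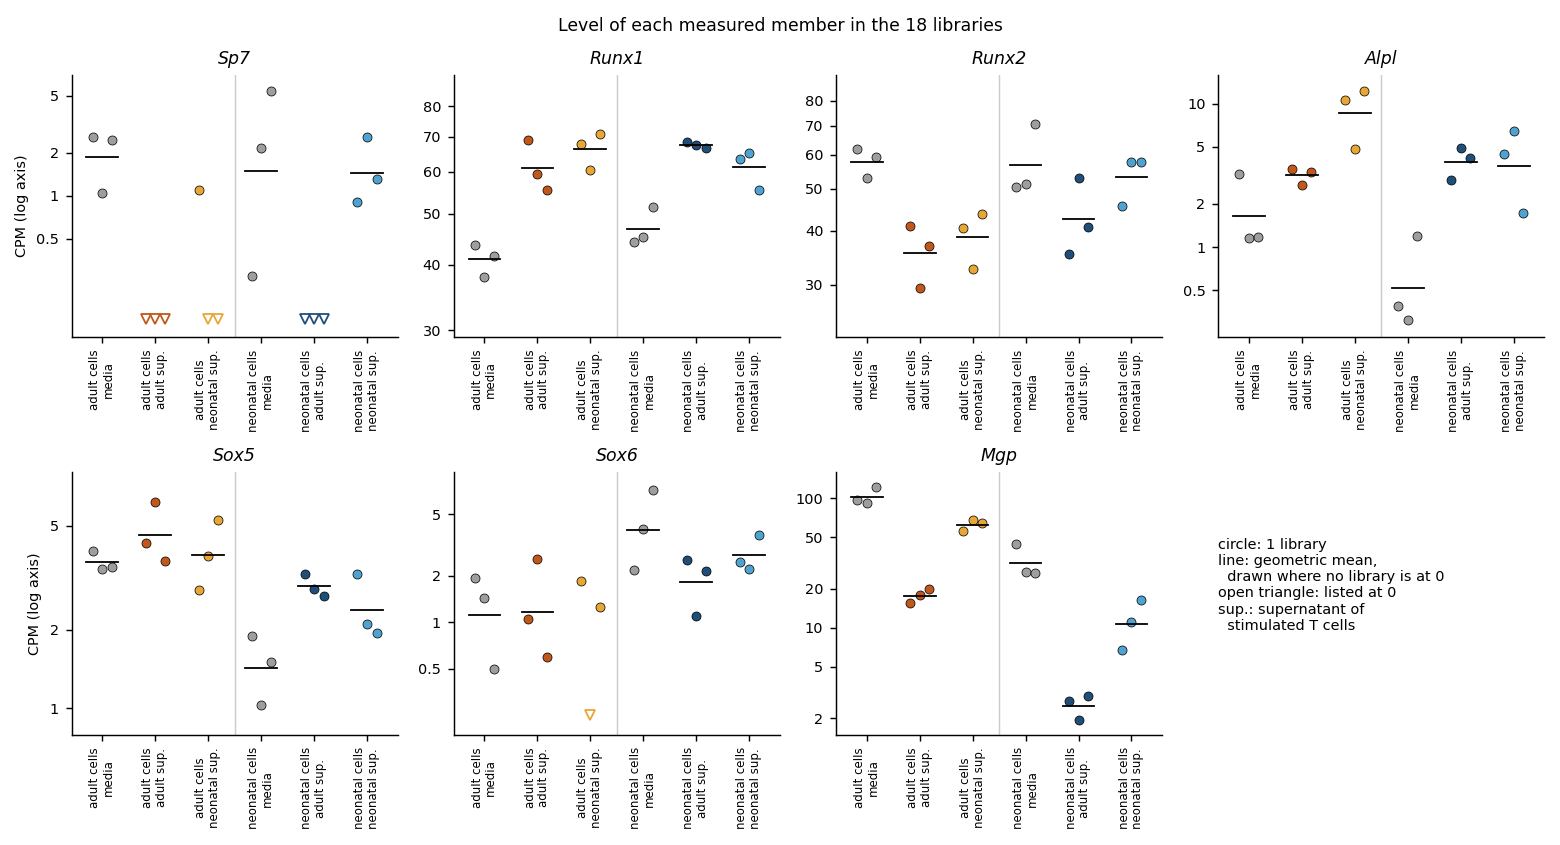
Level of the 7 measured members in CPM (log axis) in each of the 18 libraries, by group. Circles are libraries, lines the geometric mean where no library is at 0, and open triangles libraries listed at 0; Mgp runs from 121 CPM in adult cells in media to 1.95 CPM in neonatal cells with adult supernatant.

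Mgp fell in all 4 comparisons with media. In adult cells Mgp measured 97.3, 91.8 and 121 CPM in media, 15.5, 17.8 and 19.8 CPM with adult supernatant, and 55.9, 67.1 and 64.1 CPM with neonatal supernatant. Neonatal cells held 44.6, 27.0 and 26.6 CPM in media, 2.71, 1.95 and 2.97 CPM with adult supernatant, and 6.75, 11.0 and 16.4 CPM with neonatal supernatant. No supernatant library reached the lowest media library of its own cell age, and every adult-supernatant library lay below every neonatal-supernatant library of that age. The fall with adult supernatant was 5.79-fold in adult cells (log2 fold change -2.53 ± 0.26, SE; adjusted p = 3.4e-07) and 12.1-fold in neonatal cells (-3.60 ± 0.26; adjusted p = 5.6e-09). With neonatal supernatant it was 2.95-fold in neonatal cells (-1.56 ± 0.26; adjusted p = 0.00034) and 1.65-fold in adult cells (-0.72 ± 0.26; adjusted p = 0.0468). The last of these was lost without any single one of its 6 libraries (adjusted p 0.0604 to 0.159) and without a mean-variance trend (0.0723), whereas the other three were kept in every alternative run.

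The level of Mgp differed between the adult and the neonatal supernatant and between adult and neonatal tendon cells. With neonatal in place of adult supernatant Mgp was higher by 1.81 ± 0.26 log2 units in adult cells (adjusted p = 4.0e-05) and by 2.04 ± 0.26 in neonatal cells (adjusted p = 1.5e-05). Neonatal cells had less Mgp than adult cells in media (-1.69 ± 0.26, adjusted p = 0.00013), with adult supernatant (-2.75 ± 0.26, adjusted p = 1.3e-06) and with neonatal supernatant (-2.53 ± 0.26, adjusted p = 2.6e-06), and the libraries of the 2 ages did not overlap in any of the 3 media. In order of mean level the groups ran from adult cells in media through adult cells with neonatal supernatant, neonatal cells in media, adult cells with adult supernatant and neonatal cells with neonatal supernatant to neonatal cells with adult supernatant. Only the fourth and the fifth of these overlapped. Whether cells of the 2 ages differ in how far Mgp falls was tested as an interaction, and the difference of -1.06 ± 0.36 for adult supernatant missed the threshold (adjusted p = 0.118), as did -0.84 ± 0.36 for neonatal supernatant (adjusted p = 0.317). Quantile normalization brought the first to -1.42 (adjusted p = 0.0302). Without both interferon-high libraries it was -0.74 (adjusted p = 0.414).

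Against media, mural cell markers mostly fell with Mgp. Of 8 measured markers of 9, among them Pdgfrb, Cspg4, Notch3 and Myh11, 6 were lower with adult supernatant in adult cells and 7 in neonatal cells, 4 and 5 were lower with neonatal supernatant, and 1 was higher in adult cells with neonatal supernatant. The list added up to 1262 to 1325 CPM in the adult-cell media libraries, to 309.6 to 359.3 CPM under adult supernatant and to 769.3 to 916 CPM under neonatal supernatant. In neonatal cells it summed to 810.5 to 1086, 254.1 to 270.3 and 596.6 to 751.6 CPM in the same order. Myh11 averaged 0.214 CPM in adult cells with adult supernatant against 46.6 CPM in media. Tendon markers fell as well, 6 of 10 in adult and 7 of 10 in neonatal cells with adult supernatant (median log2 fold change -1.53 and -1.25) and 5 and 4 of 10 with neonatal supernatant (-0.42 and -0.35). In the same order 3, 2, 2 and 0 of 10 rose. Osteoclast markers, 4 of 6 measured, were called in both directions. With adult supernatant 1 rose and 1 fell in adult cells, and 1 rose and 2 fell in neonatal cells. Of the 4, 2 rose in adult cells with neonatal supernatant and 1 fell in neonatal cells with it. They summed to 387 to 428.5, 253.8 to 261.5 and 529.2 to 596.6 CPM in adult cells in media, under adult and under neonatal supernatant, and to 248.3 to 277.6, 137.4 to 146.3 and 231.6 to 292 CPM in neonatal cells. The part of these 3 lists in the fall of Mgp was not tested. Between the ages, 2 of the 8 mural markers were called higher and 2 lower in neonatal cells, in media and with either supernatant. The shares of all genes called there were 28.6% in media, 20.6% with adult and 29.8% with neonatal supernatant. The median log2 fold changes of the 8 were 0.28 in media, 0.07 with adult and 0.27 with neonatal supernatant. Macrophage and endothelial markers were lower in neonatal than in adult cells in media, 5 of 7 and 4 of 5 being called, beside 28.6% of all genes. The part of these lists in the difference of Mgp between the ages was not tested either.

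Alpl, which acts on mineral in the opposite sense to Mgp, rose in 3 of the 4 responses. Adult cells held 3.24, 1.16 and 1.18 CPM in media, 3.50, 2.69 and 3.35 CPM with adult supernatant, and 10.6, 4.81 and 12.3 CPM with neonatal supernatant. Neonatal cells held 0.390, 0.309 and 1.19 CPM in media, 2.95, 4.94 and 4.19 CPM with adult supernatant, and 4.44, 6.40 and 1.73 CPM with neonatal supernatant. Every library with neonatal supernatant, and every neonatal-cell library with adult supernatant, stood above the media libraries of its age, whereas adult cells with adult supernatant overlapped theirs through library 1 of the media group.

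The rise of Alpl was 4.87-fold in adult cells with neonatal supernatant (log2 fold change 2.29 ± 0.52, adjusted p = 0.0032), 6.10-fold in neonatal cells with adult supernatant (2.61 ± 0.52, adjusted p = 0.00050) and 5.71-fold in neonatal cells with neonatal supernatant (2.51 ± 0.52, adjusted p = 0.0023). These folds are on a log2 scale with a small offset, and with a pseudocount of 1 CPM those in neonatal cells came to 1.65 and 1.60 log2 units, both still called. Quantile normalization gave 1.64 for neonatal cells with adult supernatant. In adult cells adult supernatant gave 0.88 ± 0.52 (95% interval -0.21 to 1.97, adjusted p = 0.163). Adult cells had more Alpl with neonatal than with adult supernatant, with no overlap between the libraries, yet the difference of 1.40 ± 0.52 narrowly missed the threshold (adjusted p = 0.0517). It passed without library 2 of the neonatal-supernatant group (1.81, adjusted p = 0.0236) and under 4 other settings. Over all 15 alternatives the adjusted p ranged from 0.0174 to 0.179. Library 3 of neonatal cells with neonatal supernatant, the one with the low IL-17 target level, had the lowest Alpl of its group; without it the rise was 3.03 ± 0.52 (adjusted p = 0.00053).

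In media, neonatal cells had less Alpl than adult cells (-1.42 ± 0.52, adjusted p = 0.0488), but the groups overlapped, and the call was lost without library 1 (0.220) or library 2 (0.0550) of the adult media group, without library 1 (0.146) or library 2 (0.179) of the neonatal media group, without both interferon-high libraries (0.140), and with quantile normalization, a pseudocount of 1 CPM, no trend or only the 2 groups in the fit (0.0670 to 0.165). With neonatal supernatant the same difference was -1.19 ± 0.52 (adjusted p = 0.0940), and it passed without library 2 of the adult-cell group (0.0460) or library 2 of the neonatal-cell group (0.0452). Without library 3 of the latter it was -0.67 (adjusted p = 0.383). In order of mean level, adult cells with neonatal supernatant came first and neonatal cells in media last, and each group overlapped the next. The interaction of cell age with adult supernatant was 1.73 ± 0.73 for Alpl (adjusted p = 0.217). Of 10 T cell markers 5 were measured (Cd3d, Cd28, Lck, Cd4 and Cd8a, with no row for Cd3e, Cd3g, Cd2, Trac or Trbc2), of which 2 rose with adult supernatant in cells of either age, 1 with neonatal supernatant in adult cells and 0 with it in neonatal cells. They summed to 1.85 to 3.74 CPM over the media libraries, 6.10 to 16.5 CPM with adult supernatant and 2.52 to 5.65 CPM with neonatal supernatant, the lowest of the latter within the media range. Of 7 measured macrophage markers of 9, 3 and 5 rose with adult supernatant in adult and in neonatal cells and 1 fell in each, and 2 rose with neonatal supernatant in each. They summed to 101 to 128.2, 62.02 to 76.06 and 85.24 to 114.3 CPM in adult cells in media, under adult and under neonatal supernatant, and to 34.7 to 56.19, 38.98 to 49.61 and 49.38 to 81.23 CPM in neonatal cells. Ptprc, the pan-leukocyte marker CD45, was higher in all 4 responses, for example from 0.56 to 7.32 CPM in neonatal cells with adult supernatant (3.51 ± 0.55, adjusted p = 6.1e-05). The part of T cell and macrophage markers in the rise of Alpl, or of Runx1 below, was not tested.

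**Figure D2:**
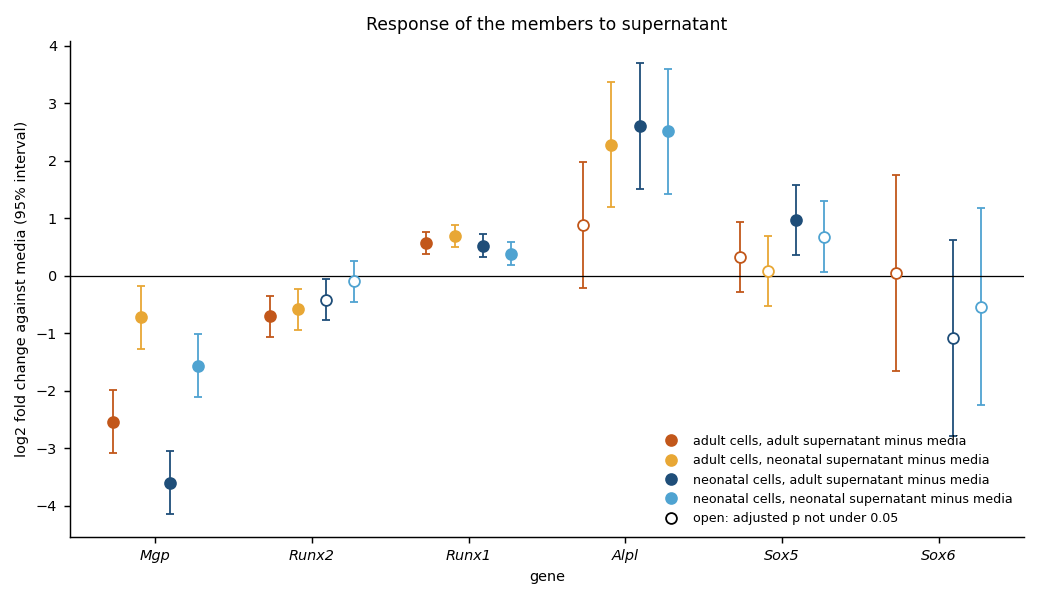
Log2 fold change against media with its 95% interval (limma) for 6 members in the 4 responses; filled symbols are called and open ones are not. Mgp lies below 0 in all 4, Runx1 above 0 in all 4, and Alpl is called in 3; Sp7, and Sox6 in adult cells with neonatal supernatant, are left out because libraries are listed at 0.

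Runx1 rose by a modest amount in all 4 responses. Its media level was 43.6, 37.9 and 41.5 CPM in adult cells and 44.2, 45.1 and 51.4 CPM in neonatal cells. Adult cells held 68.9, 59.5 and 55.5 CPM with adult supernatant and 67.9, 60.6 and 70.7 CPM with neonatal supernatant. Neonatal cells held 68.2, 67.6 and 66.8 CPM with adult supernatant and 63.4, 65.1 and 55.5 CPM with neonatal supernatant. All 12 supernatant libraries lay above all 6 media libraries. The log2 fold change was 0.58 ± 0.09 (adjusted p = 5.8e-05) and 0.69 ± 0.09 (adjusted p = 2.8e-05) in adult cells given adult and neonatal supernatant, and 0.53 ± 0.09 (adjusted p = 0.00016) and 0.39 ± 0.09 (adjusted p = 0.0067) in neonatal cells. No alternative ended any of these 4 calls. The interaction of cell age with neonatal supernatant was -0.31 ± 0.13 for Runx1 (adjusted p = 0.304), and with adult supernatant -0.05 ± 0.13 (adjusted p = 0.908). The 4 supernatant groups overlapped in their order of level, and below them neonatal cells in media (46.9 ± 3.91 CPM, SD, n = 3) did not overlap adult cells in media (41.0 ± 2.88 CPM), a difference of 0.19 ± 0.09 log2 units that missed the threshold (adjusted p = 0.135).

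Runx2, the osteoblast regulator, went the other way in adult cells. It stood at 61.8, 52.8 and 59.1 CPM in media, 41.0, 29.5 and 36.8 CPM with adult supernatant and 40.6, 32.6 and 43.6 CPM with neonatal supernatant, and no supernatant library reached the lowest media library. The fall was 1.63-fold with adult supernatant (-0.70 ± 0.17, adjusted p = 0.0021) and 1.49-fold with neonatal supernatant (-0.58 ± 0.17, adjusted p = 0.0163), the latter lost without library 1 of the media group (0.0604) or library 2 of the neonatal-supernatant group (0.0845). Neonatal cells held 50.5, 51.2 and 70.7 CPM in media, 35.3, 53.1 and 40.8 CPM with adult supernatant and 45.6, 57.6 and 57.6 CPM with neonatal supernatant, and both supernatant groups overlapped the media group. The change was -0.42 ± 0.17 with adult supernatant (adjusted p = 0.0501) and -0.09 ± 0.17 with neonatal supernatant (95% interval -0.45 to 0.27, adjusted p = 0.775). The former passed the threshold without library 2 of the adult-supernatant group (-0.58, adjusted p = 0.0123), without library 1 or 2 of the media group (0.0411 and 0.0479), without both interferon-high libraries (0.0450), and under 3 other settings. Without library 3 of the media group it was -0.26 (adjusted p = 0.238).

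Cells of the 2 ages were not shown to differ in the response of Runx2: the interaction was 0.29 ± 0.24 with adult supernatant (adjusted p = 0.591) and 0.49 ± 0.24 with neonatal supernatant (adjusted p = 0.387). With neonatal supernatant, neonatal cells had more Runx2 than adult cells by 0.46 ± 0.17 log2 units with no overlap (adjusted p = 0.0471). That call was lost without library 1 (0.0713) or 2 (0.193) of the adult-cell group, without library 2 (0.129) or 3 (0.137) of the neonatal-cell group, and under 4 other settings. Neonatal cells were not separated in Runx2 between the supernatants (0.33 ± 0.17, adjusted p = 0.150), except without library 2 of the adult-supernatant group (0.49, adjusted p = 0.0468). The 15 alternatives ranged from 0.19 to 0.49 log2 units, and their adjusted p reached 0.458. The order of the group means ran from adult cells in media to adult cells with adult supernatant, each group overlapping the next.

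Set per length, the balance between the 2 Runx genes changed sides. Divided by the longest coding transcript (5861 bases for Runx1, 6463 for Runx2, GENCODE M21), Runx1 was below Runx2 in each of the 6 media libraries and above it in each of the 12 supernatant libraries. The difference of Runx1 from Runx2 in log2 CPM per kb was -0.36, -0.34 and -0.37 in adult cells in media, and -0.05, -0.04 and -0.32 in neonatal cells in media. With adult supernatant it was 0.89, 1.15 and 0.73 in adult cells and 1.09, 0.49 and 0.85 in neonatal cells. With neonatal supernatant it was 0.88, 1.04 and 0.84 in adult cells and 0.61, 0.32 and 0.09 in neonatal cells, the last being the library of low IL-17 target level. The place of the zero rests on these transcript lengths, which the authors' estimate need not share, whereas the separation between media and supernatant libraries does not. Runx3, the remaining gene of the family and not in the set, stood at 0.215 to 5.31 CPM over the media libraries, the highest being library 3 of neonatal cells.

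**Figure D3:**
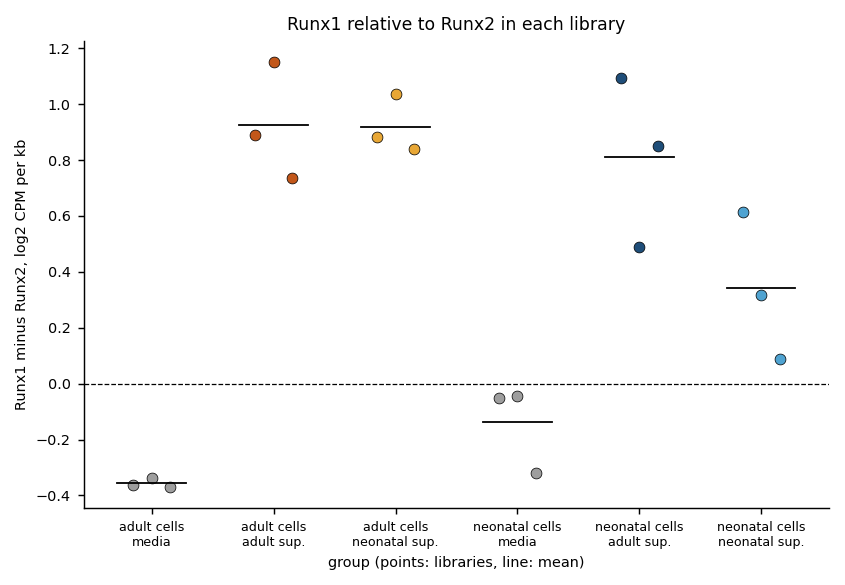
Runx1 minus Runx2 in log2 CPM per kb of the longest coding transcript (y axis) in each library, by group, with the group mean as a line. The 6 media libraries lie between -0.37 and -0.04 and the 12 supernatant libraries between 0.09 and 1.15.

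Sp7, which acts downstream of Runx2 in osteoblasts, was low throughout and listed at 0 in 8 of the 18 libraries. Adult cells in media had 2.57, 1.05 and 2.43 CPM, the second of these being worth 17.0 reads. All 3 libraries of adult cells and all 3 of neonatal cells with adult supernatant were listed at 0. With neonatal supernatant, adult cells had 1.09 CPM in library 1 and were listed at 0 in the other two, whereas neonatal cells had 0.906, 2.57 and 1.31 CPM. Neonatal cells in media had 0.276, 2.16 and 5.39 CPM, the first of these being worth only 4.52 reads. Sp7 was therefore above 0 in all 6 media libraries and in none of the 6 with adult supernatant.

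A value of 0 in this table is not proof of absence: genes in wide use such as Sbno2 and Pck2 (each in 1 library) and Pcx and Wdr7 (each in 5) are also listed at 0, genes chosen for this purpose after their values were seen, and 995 genes are at 0 in at least 1 library. No fold is given for Sp7, since its fitted size depends on the offset. The p-values below come from the same values. Both adult-supernatant groups, listed wholly at 0, also add no spread of their own to the fit. The limma test called Sp7 lower with adult supernatant in adult cells (adjusted p = 0.0010) and in neonatal cells (adjusted p = 0.0019), and higher in neonatal cells with neonatal than with adult supernatant (adjusted p = 0.0046), and no alternative that kept Sp7 ended these 3 calls. It also called Sp7 lower in adult cells with neonatal supernatant (adjusted p = 0.0202), a call lost without library 1 (0.0695) or 3 (0.0657) of the media group, without library 2 (0.0923) or 3 (0.0831) of the supernatant group, or with a pseudocount of 1 CPM (0.0532). With neonatal supernatant Sp7 was called higher in neonatal than in adult cells (adjusted p = 0.0357), and that call was lost without library 2 (0.144) or 3 (0.135) of the adult-cell group, without library 2 (0.116) or 3 (0.0682) of the neonatal-cell group, with a pseudocount of 1 CPM (0.107) and with only those 2 groups in the fit (0.0737). In neonatal cells with neonatal supernatant Sp7 overlapped media (adjusted p = 0.949).

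Sox5, a partner of Sox9 in cartilage, differed between the ages of the tendon cells in media. Adult cells held 4.01, 3.41 and 3.47 CPM in media and neonatal cells 1.89, 1.03 and 1.50 CPM, without overlap, a difference of -1.27 ± 0.29 log2 units (adjusted p = 0.0034) that no alternative ended. Adult cells did not pass the threshold with adult supernatant (4.29, 6.17 and 3.66 CPM; 0.33 ± 0.29, 95% interval -0.28 to 0.94) or with neonatal supernatant (2.83, 3.82 and 5.28 CPM; 0.09 ± 0.29, 95% interval -0.53 to 0.70). In neonatal cells adult supernatant raised Sox5 to 3.27, 2.86 and 2.69 CPM, all above the media libraries (0.97 ± 0.29, adjusted p = 0.0107), but quantile normalization cut the change to 0.24 (adjusted p = 0.498) and the call was lost without library 2 of the media group (0.76, adjusted p = 0.0605). Neonatal supernatant gave 3.28, 2.11 and 1.93 CPM, again above the media libraries, with a change of 0.68 ± 0.29 that missed the threshold (adjusted p = 0.117) except with array weights (0.95, adjusted p = 0.0148; highest over the 15 alternatives 0.377). With supernatant the 2 ages were not separated by the test (adjusted p = 0.146 with adult and 0.0931 with neonatal supernatant), although the former passed with quantile normalization (0.0361) and the latter without library 1 of the adult-cell group (0.0479) or library 1 of the neonatal-cell group (0.0496). Over their 14 alternatives each the adjusted p reached 0.396 and 0.316. In order of mean level the 3 adult-cell groups came first and overlapped each other, and neonatal cells in media came last and overlapped none.

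Sox6, the other partner of Sox9, was called in none of the 11 comparisons. Adult cells held 1.94, 1.45 and 0.499 CPM in media and 1.05, 2.55 and 0.597 CPM with adult supernatant. With neonatal supernatant they held 1.84 CPM in library 1 and 1.25 CPM in library 3 and were listed at 0 in library 2. Neonatal cells held 2.17, 4.01 and 7.20 CPM in media, 2.53, 1.10 and 2.15 CPM with adult supernatant and 2.46, 2.20 and 3.68 CPM with neonatal supernatant. The media libraries of neonatal cells were all above those of adult cells, and the difference of 1.70 ± 0.81 log2 units missed the threshold (adjusted p = 0.130), except with a pseudocount of 1 CPM (1.20, adjusted p = 0.0392; highest over the 15 alternatives 0.360). Sox5 differed between the ages in the opposite direction. With neonatal supernatant the neonatal libraries of Sox6 were again all above the adult ones (adjusted p = 0.0699), a difference that passed with quantile normalization (0.0325) and without library 1 (0.0226) or library 3 (0.0490) of the adult-cell group. It rested on library 2 of adult cells, the one listed at 0, without which it was 0.79 log2 units (adjusted p = 0.385).

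Between the supernatants and between the ages, Mgp was called in all 5 comparisons and no other member in more than 2. Neonatal against adult supernatant called 1 of 7 in adult cells (Mgp, higher) where 28.6% of all genes were called, and 2 of 7 in neonatal cells (Mgp and Sp7, both higher) where 32.4% were. Neonatal against adult cells called 3 of 7 in media (Mgp, Alpl and Sox5, all lower; 28.6% of all genes), 1 of 7 with adult supernatant (Mgp, lower; 20.6%) and 3 of 7 with neonatal supernatant (Sp7 and Runx2 higher, Mgp lower; 29.8%). The interaction of cell age with supernatant called no member: 0 of 7 for adult supernatant, where 4.55% of all genes were called and 2 members had an unadjusted p under 0.05, and 0 of 7 for neonatal supernatant, where 0.855% were called and 3 members had an unadjusted p under 0.05.

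Further bone and cartilage genes, taken as lists, were called in both directions. The counts below are descriptions, to be read against the shares of all genes called in these responses (52.0 and 47.8% with adult and 27.3 and 18.3% with neonatal supernatant, in adult and neonatal cells). Single genes are named for their small p in the response given. Their other responses are mostly not printed, so they do not stand for their list or for all 4 responses. Of 18 measured osteoblast genes (23 listed), 6 were higher and 8 lower in adult cells with adult supernatant and 6 and 7 in neonatal cells. Under neonatal supernatant the counts were 5 and 3 in adult and 2 and 4 in neonatal cells. Their median log2 fold changes were -0.23, 0.06, -0.06 and -0.02 in that order, beside 0.03, 0.07, 0.03 and 0.04 over all genes. Spp1 (osteopontin, a secreted phosphoprotein of bone and of inflamed tissue) rose from 301 to 1557 CPM in adult cells with neonatal supernatant (2.37 ± 0.14, adjusted p = 5.7e-09), while Sparc (osteonectin, a collagen-binding matrix protein) fell from 6442 to 3117 CPM in neonatal cells with adult supernatant (-1.05 ± 0.06, adjusted p = 5.9e-10). Vdr, the vitamin D receptor, rose from 9.13 to 42.1 CPM in neonatal cells with neonatal supernatant (2.19 ± 0.15, adjusted p = 2.5e-08). Msx2, a homeobox factor of skeletal precursors, fell from 16.7 to 5.34 CPM in neonatal cells with adult supernatant (-1.63 ± 0.19, adjusted p = 1.9e-06).

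Of 15 measured chondrocyte genes (24 listed), 2 were higher and 6 lower in adult cells with adult supernatant and 2 and 8 in neonatal cells, against 3 and 3, then 2 and 2, with neonatal supernatant. The 8 of 15 called in adult cells with adult supernatant are at the share of all genes. The medians were -0.11, -0.35, -0.01 and 0.04. Sox9, the factor that Sox5 and Sox6 assist, rose with neonatal supernatant, from 28.2 to 54.2 CPM in adult cells (0.94 ± 0.11, adjusted p = 4.5e-06) and from 26.8 to 45.7 CPM in neonatal cells (0.77 ± 0.11, adjusted p = 5.4e-05), and fell with adult supernatant in neonatal cells (-0.35 ± 0.11, adjusted p = 0.010). Comp, a cartilage and tendon matrix protein, showed a like split in adult cells, whose media mean of 243 CPM went to 70.4 CPM with adult supernatant (-1.78 ± 0.11, adjusted p = 8.4e-10) and to 418 CPM with neonatal supernatant (0.78 ± 0.11, adjusted p = 5.8e-05). Col11a1, a fibril collagen of cartilage, fell in all 4 responses, from -3.06 ± 0.14 log2 units in adult cells with adult supernatant (adjusted p = 2.5e-11) to -0.61 ± 0.14 in neonatal cells with neonatal supernatant (adjusted p = 0.0061).

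Of the other Sox genes, Sox9 again included, 7 of 9 were measured, and 2 rose and 2 fell with adult supernatant in cells of either age, while 2 rose with neonatal supernatant in each and 1 fell, in adult cells. Sox11, a factor of embryonic progenitors, rose from 3.67 to 70.5 CPM in adult cells with adult supernatant (4.23 ± 0.24, adjusted p = 2.8e-10) and from 9.26 to 105 CPM in neonatal cells (3.50 ± 0.24, adjusted p = 3.6e-09). Sox4, its close relative, fell from 163 to 50.4 CPM in adult cells with adult supernatant (-1.69 ± 0.11, adjusted p = 1.0e-09).

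Mgp needs the vitamin K cycle for its activation. Of 8 measured genes of mineral control and that cycle (11 listed), 2 were higher and 3 lower in adult cells with adult supernatant. The counts were 1 and 5 in neonatal cells with it, 0 and 1 in adult cells with neonatal supernatant, and then 1 and 3 in neonatal cells. Medians were -0.39, -0.48, 0.04 and -0.22. Gas6, another vitamin K-dependent protein, fell from 2328 to 303 CPM in adult cells with adult supernatant (-2.94 ± 0.07, adjusted p = 4.0e-14). Vkorc1 and Ggcx, the enzymes that recycle vitamin K and carboxylate its target proteins, fell there as well (-0.80 ± 0.10, adjusted p = 4.3e-06, and -0.59 ± 0.08, adjusted p = 5.9e-06). Slc20a2, a phosphate transporter, rose (0.63 ± 0.09, adjusted p = 1.2e-05).

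Partners of Runx proteins were split too. Of 19 measured (20 listed), 6 were higher and 6 lower in adult cells with adult supernatant, 4 and 4 in neonatal cells with it, and 2 and 4 with neonatal supernatant in cells of either age. Cbfb, the shared DNA-binding partner of all Runx proteins, fell from 92.9 to 70.8 CPM in neonatal cells with adult supernatant (-0.39 ± 0.07, adjusted p = 0.00038). Smurf1, a ubiquitin ligase known to target Runx2 for degradation, rose in adult cells with adult supernatant from 147 to 228 CPM (0.64 ± 0.06, adjusted p = 9.4e-08), and Zfp521, a Runx2 antagonist, fell from 24.9 to 5.02 CPM (-2.31 ± 0.20, adjusted p = 6.5e-08).

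Of 16 measured genes of bone and cartilage inducing signals (19 listed), 6 rose and 5 fell in adult cells with adult supernatant, 6 and 4 in neonatal cells with it, 4 and 5 in adult cells with neonatal supernatant, and then 4 and 2 in neonatal cells. Grem1, a secreted BMP antagonist, rose from 179 to 2969 CPM in adult cells with adult supernatant (4.06 ± 0.15, adjusted p = 3.1e-12), and Sfrp1, a secreted Wnt antagonist, from 50.5 to 1249 CPM in neonatal cells with adult supernatant (4.63 ± 0.13, adjusted p = 1.3e-13). Bmp4, a bone-inducing ligand, fell from 17.2 to 4.15 CPM in adult cells with adult supernatant (-2.04 ± 0.26, adjusted p = 5.8e-06) and from 20.0 to 4.52 CPM in neonatal cells (-2.10 ± 0.26, adjusted p = 5.3e-06). Bmp2 rose in adult cells with neonatal supernatant, from 2.05 to 8.60 CPM (1.99 ± 0.33, adjusted p = 0.00021).

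**Figure D4:**
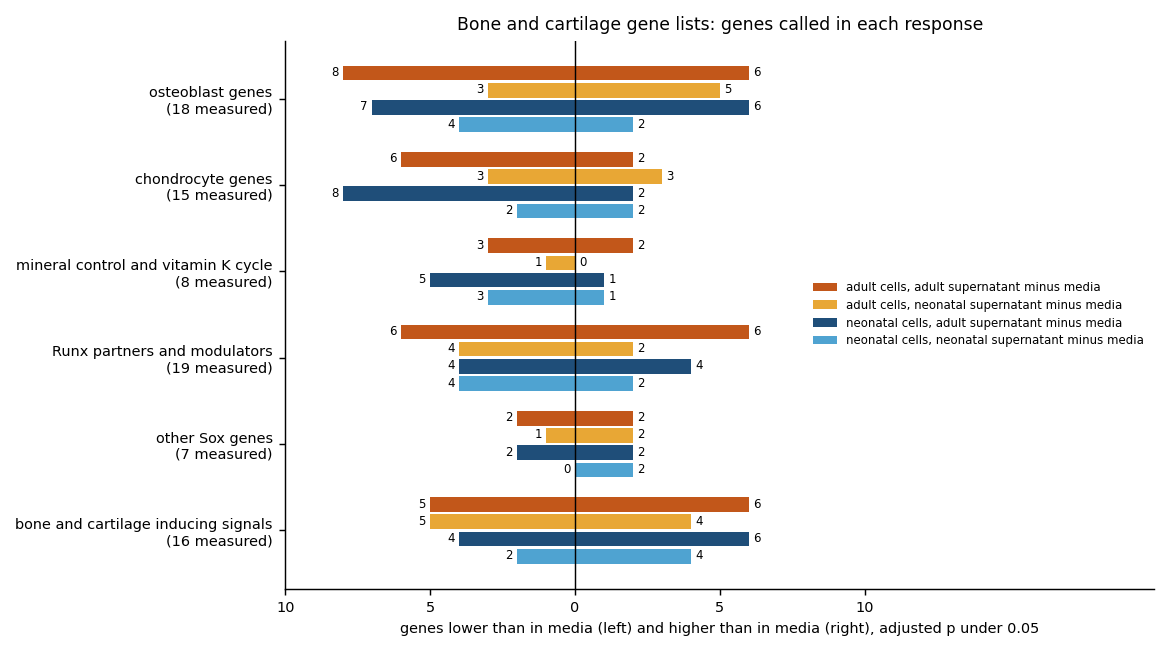
Number of genes called lower (left of 0) and higher (right of 0) than in media at an adjusted p under 0.05, for 6 lists of related genes (y axis) in the 4 responses (colours). All 6 lists hold genes called in both directions in each response to adult supernatant, and 8 of 15 chondrocyte genes are lower in neonatal cells with adult supernatant.

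Compared per length, Mgp was by far the most abundant member. Its mean was 168 CPM per kb in adult cells in media and 4.12 CPM per kb in neonatal cells with adult supernatant, the latter below Runx1 (11.5) and Runx2 (6.66 CPM per kb) in the same libraries. The 2 Runx genes came next in media, at 7.00 and 8.96 CPM per kb in adult cells, whereas Alpl (0.737), Sp7 (0.651), Sox5 (0.502) and Sox6 (0.149 CPM per kb) were low.

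The genes whose profile over the 18 libraries lay nearest to each member, by the root mean squared difference of centred log2 CPM among 12688 named genes of at least 1 CPM on average, were Plxdc1, Itgbl1 and Lrrn4cl for Mgp (0.51 log2 units for Plxdc1, where Mgp itself varied by 1.76 about its mean). For Runx1 they were Dtnbp1, Plod3 and Gja1 (0.13 for Dtnbp1, against 0.28 for Runx1 itself), and for Runx2 Gtf3c1, Aaas and Sprtn (0.18 against 0.33). Alpl lay nearest to Sod3, Dnah7b and Il1r1 (0.63 against 1.28), Sox5 to Hoga1, Phospho1 and C1rl (0.29 against 0.59), Sp7 to Tgfb2, Jag1 and Wisp1 (1.15 against 2.00), and Sox6 to Glipr1, Vcpkmt and Egfl8 (0.87 against 1.24). Next to the member's own variation, the distance was smallest for Mgp and largest for Sox6. The neighbours of all members other than Mgp are loose.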

How the data were processed

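RNA of 18 libraries was analysed from 1 deposited table. Per the labels' protocols, Trizol RNA gave polyadenylated, paired-end NEBNext Ultra II libraries; per the submitters' processing notes, the authors used kallisto, limma 3.56.2 and GRCm39. The deposited values are log2 CPM as the authors made them, with every gene above 1 CPM in 3 libraries and a lowest value of -2.98 (0.127 CPM), which equals an offset of 2 reads at a mean depth of 15.8 M. A library's depth was taken as that total which placed most low values, the offset removed, on whole reads (8.47 to 17.8% within 0.02 reads, against 6.71 to 13.7% at the next best total). CPM below are 2 to the power of the value, less the offset. Intervals and floors cover counting error or library spread only.

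The models used R 4.3.3 and its package limma 3.58.1 (eBayes with trend after lmFit) on all libraries, two-sided, with Benjamini-Hochberg over 14391 genes. They had 12 residual and 4.59 prior degrees of freedom. On simulated data, 37 to 41% of changes of 0.5 log2 units were recovered in the pairwise comparisons tried. For the interaction with adult supernatant 23% were recovered, and 56% of changes of 1 log2 unit. The simulation changed fewer genes than were called in the responses. The members and lists were chosen with earlier results of these data known. Named genes are all members, the smallest p of each list (up to 4 genes), and the 3 nearest profiles per member. Alternatives were other scalings, a filter of 5 CPM in 3 libraries, a pseudocount of 0.1 or 1 CPM, no trend, array weights, only the groups compared, a replicate block and left-out libraries. Same-numbered libraries did not deviate together (45 pairs, r -0.16 to 0.22). Python 3.11.15, numpy 2.4.6, pandas 2.3.3 and matplotlib 3.10.9 were used. Raw reads were not analysed here, and 1 marker list is not reported here.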

Additional observations from a re-analysis of the deposited data

How the results depend on the processing

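Of 1255 repeats of the members' values under another setting, 1149 kept direction and side of the threshold, 40 lost a call, 24 gained one and 42 moved without a call, and none reversed a called value. The count of members called changed by over 1.5 times in few settings. With a filter of 5 CPM in 3 libraries, which leaves 4 of the 7 members, it was 3 in neonatal cells with adult supernatant, 1 for neonatal against adult supernatant in neonatal cells and 2 for the same comparison in adult cells. That last count was 2 also with quantile normalization, with a pseudocount of 1 CPM and with only the groups compared. Quantile normalization gave 2 for neonatal against adult cells with adult supernatant and 1 for the interaction with adult supernatant. It also shifted the median of all genes for neonatal cells with adult supernatant, from 0.07 to -0.11 log2 units. The causes were not tested beyond the number of genes the filter leaves. Leaving out 1 library at a time gave 2 to 4 members for adult cells with neonatal supernatant, 1 to 2 for neonatal against adult supernatant in adult cells and 1 to 4 for neonatal against adult cells with neonatal supernatant. The replicate block changed 1 call: Alpl between the ages in media missed the threshold (adjusted p = 0.0623), which left 2 members there. Depth limits Sp7, Sox6 and Alpl most, since 3 reads are worth up to 0.237 CPM.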
